A study of Mus musculus with 4 samples.

Results

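The inflammasome genes Nlrp3, Nlrc4, Aim2, Pycard, Casp1, Casp4, Gsdmd, Il1b, Il18 and Il1rn were examined in gonadal white adipose tissue (gWAT) of mice that lack the DNA methyltransferase Dnmt1 in adipocytes. These 10 genes were taken by symbol from a table of 17335 genes, and each had 1 row in it. The control group was fl/fl, mice whose Dnmt1 alleles are floxed but intact, and the other group was AD1KO, in which Cre driven by the adiponectin promoter deletes floxed Dnmt1 in adipocytes. Both groups were females fed a high-fat diet (HFD), for 18 weeks by the labels, and neither strain nor age is given for them. RNA of 4 animals was pooled in each group and sequenced as a single library, so the values carry no measure of the spread between animals and no test of the genotype was possible. The Cre acts in adipocytes, so by design immune cells of the tissue keep Dnmt1 in both groups, which was not measured per cell type. The floxed stretch covers exons 4 and 5, and its loss shifts the reading frame. The fl/fl mice are littermates of the AD1KO mice.

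An inflammasome is a protein platform that assembles in the cytosol of cells that have met infection or damage. Sensors recruit the adaptor ASC, the product of Pycard, which brings in the protease caspase-1. Caspase-1 cuts the precursors of the cytokines IL-1 beta and IL-18 and frees the pore-forming part of gasdermin D, through which the cytokines leave the cell. In obese fat tissue the platform is best known from macrophages. The precursors and the NLRP3 sensor are also set at the level of transcription, and it is only this RNA level that was measured here, not assembly, cutting or release.

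Caspase-1's cut, which gives the pathway its output, falls behind an aspartate in each substrate. The coding sequences around it are shown because they mark what caspase-1 acts on among the genes below. Each runs 5′ to 3′ over 45 bases with the aspartate codon in capitals, and was read from GENCODE transcripts and matched to the mm9 genome.
Gsdmd: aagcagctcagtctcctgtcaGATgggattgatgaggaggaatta
Il1b: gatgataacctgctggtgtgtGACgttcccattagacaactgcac
Il18: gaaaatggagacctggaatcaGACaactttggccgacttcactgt
The Gsdmd stretch holds codon 276 of 487 and joins exons 7 and 8 on chromosome 15, plus strand (75696585 to 75696606 and 75696726 to 75696748). That of Il1b holds codon 117 of 269 and lies inside exon 5 at chr2:129193073-129193117 on the minus strand. For Il18 the codon is 35 of 192, across exons 2 and 3 on chromosome 9, plus strand (50384804 to 50384810 and 50385866 to 50385903).

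The enzymes that cut are close relatives. Shown next are the stretches around the codon of the catalytic cysteine, in capitals, for Casp1, for Casp4 (the mouse gene also called caspase-11, which cuts gasdermin D in response to lipopolysaccharide in the cytosol) and for their neighbour Casp12.
Casp1: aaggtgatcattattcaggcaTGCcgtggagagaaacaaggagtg
Casp4: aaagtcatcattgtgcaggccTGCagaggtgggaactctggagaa
Casp12: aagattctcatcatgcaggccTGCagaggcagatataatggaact
Casp1 and Casp4 are identical at 30 of these 45 bases, Casp4 and Casp12 at 29, and Casp1 and Casp12 at 26. The stretches span an exon junction, of exons 6 and 7 in Casp1, 5 and 6 in Casp4 and 7 and 8 in Casp12. Despite the relation, no 50-base run of the longest Casp1, Casp4 or Casp12 transcript occurs in a coding transcript of another gene, so reads of that length could be told apart between them.

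Levels are in FPKM, a fragment count corrected for the length of the transcript and the size of the library, so that genes can be compared with each other. The table gives no read counts. Low FPKM values fall on whole multiples of what 1 read is worth, which put the depth near 17636684 reads for fl/fl and 17361111 reads for AD1KO, and reads per gene were estimated from it. Intervals are exact 95% intervals on these reads and cover counting error only. Log2 ratios are of AD1KO over fl/fl with 0.01 FPKM added to each value, and a gene is called lower at -0.5 or below and higher at 0.5 or above. Counted over the whole gene, deleted exons and other cells included, Dnmt1 had 6.99 FPKM in fl/fl and 3.33 FPKM in AD1KO, with a log2 ratio of -1.07 (interval -1.27 to -0.87). What part of that difference lies in adipocytes was not tested. Adipoq, the adipocyte hormone adiponectin, was at 1911 and 3318 FPKM, an adipocyte signal of high level in both.

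All 10 inflammasome genes had a lower level in AD1KO than in fl/fl. The log2 ratio was at or below -0.5 in 9 of them and at or above 0.5 in none, against 19.1% lower and 14.3% higher among 15839 genes tested, those with at least 0.1 FPKM in 1 library. The balance of that background depends on the scaling, with 57.2% of all calls lower as deposited and 48.3% after upper quartile scaling. For 8 genes the whole counting interval lay at or below -0.5, as it did for 8.27% of all tested genes. The members had a median log2 ratio of -1.09 and all tested genes one of -0.04. Summed over the 10 genes, 174 FPKM in fl/fl stood against 84.7 FPKM in AD1KO, from about 5524 and 2556 reads. The ratios were not uniform. They ran from -1.82 for Nlrp3 to -0.31 for Il18, and 7 of the 10 genes were among the lowest 10% of all tested genes by ratio.

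**Figure D1:**
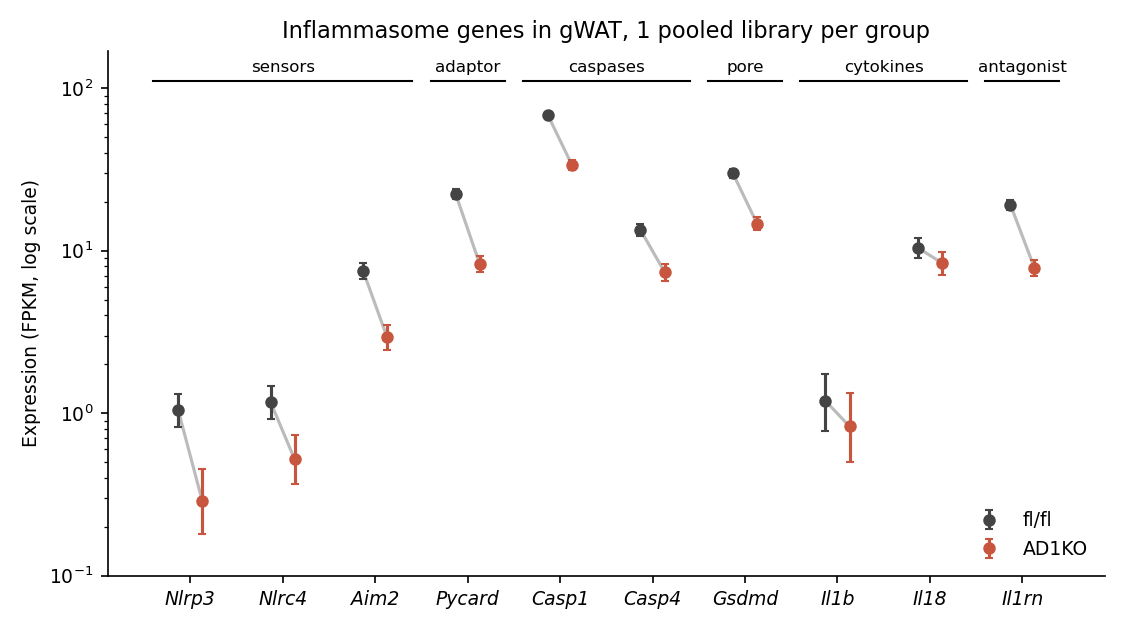
Expression of the 10 inflammasome genes in FPKM on a log axis, grouped by role, with dark points for fl/fl and red points for AD1KO. Bars are 95% Poisson counting intervals of 1 pooled library per group; the intervals of the 2 libraries overlap for Il1b and Il18 and for none of the other 8 genes.

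Among the sensors, Nlrp3 (gene 216799, chromosome 11 of mm9, 59355070 to 59380458, plus strand), which responds to ion fluxes, crystals and membrane damage, had 1.05 FPKM in fl/fl and 0.29 FPKM in AD1KO. These values rest on about 72 and 20 reads, and the counting interval of the log2 ratio (-1.82) ran from -2.62 to -1.09. It was the lowest ratio of the 10 genes and stood at percentile 3.11 of all tested genes.

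Nlrc4 (gene 268973, chromosome 17, 74825635 to 74858448, minus strand), which is set off by NAIP proteins bound to bacterial flagellin and secretion needles, had 1.17 and 0.52 FPKM. The log2 ratio was -1.15 (interval -1.78 to -0.56) from about 77 and 34 reads. Both sensors were rare transcripts, below 3 in 4 of the tested genes in fl/fl, with level percentiles of 22.5 for Nlrp3 and 23.9 for Nlrc4. Their ratios moved most with a larger pseudocount: with 1 FPKM added they were -0.67 and -0.51.

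Aim2 (gene 383619, chromosome 1, 175281010 to 175396171, plus strand), a sensor of double-stranded DNA in the cytosol, was more abundant than either. Its level was 7.54 FPKM in fl/fl against 2.93 FPKM in AD1KO, for a log2 ratio of -1.36 (interval -1.67 to -1.06) from about 326 and 125 reads.

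The adaptor Pycard (gene 66824, chromosome 7, 135135617 to 135137381, minus strand), through which NLRP3 and AIM2 reach caspase-1, measured 22.5 FPKM in fl/fl and 8.31 FPKM in AD1KO. Its log2 ratio of -1.43 (interval -1.63 to -1.24), from about 800 and 291 reads, was the lowest among the members above 10 FPKM. The level in AD1KO was 37.0% of that in fl/fl.

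Casp1 (gene 12362, chromosome 9, 5298517 to 5307265, plus strand) was the most abundant member in both libraries, at 68.1 FPKM in fl/fl and 33.5 FPKM in AD1KO. Its log2 ratio was -1.02 (interval -1.14 to -0.90), from about 1701 and 825 reads. Casp1 made up 39.0% of the summed FPKM of the 10 genes in fl/fl and 39.6% in AD1KO.

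Casp4 (gene 12363, chromosome 9, 5308828 to 5336783, plus strand) begins 1562 bases after the end of Casp1. Casp4 had 13.4 FPKM in fl/fl and 7.40 FPKM in AD1KO, for a log2 ratio of -0.86 (interval -1.08 to -0.64) from about 505 and 274 reads. Casp12 follows 8692 bases further on. It had 13.9 and 12.1 FPKM, and its log2 ratio of -0.20 (interval -0.37 to -0.03) lay apart from those of both neighbours.

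Gsdmd (gene 69146, chromosome 15, 75692769 to 75697834, plus strand), the pore-forming substrate, measured 29.9 FPKM in fl/fl and 14.7 FPKM in AD1KO, the second most abundant member in each. Its log2 ratio of -1.02 (interval -1.18 to -0.87), from about 1031 and 499 reads, matched that of Casp1. The ratios of Gsdmd and Casp1 differed by -0.0034 on the log2 scale, with a counting interval of that difference from -0.20 to 0.20.

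**Figure D2:**
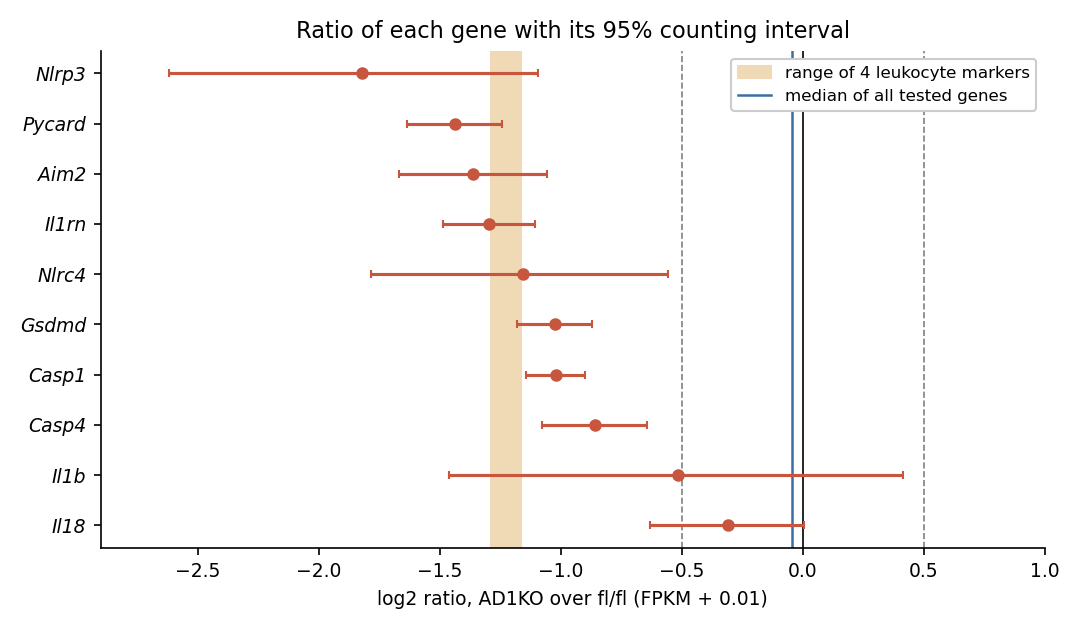
Log2 ratio (AD1KO over fl/fl) of each inflammasome gene with its 95% counting interval, beside the median of all tested genes (blue line) and the range of the 4 leukocyte markers (shaded, -1.29 to -1.16). Dashed lines mark -0.5 and 0.5; Il1b and Il18 are the genes whose intervals reach 0.

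By point value the cytokine precursors had the smallest differences of the 10 genes, though counting error leaves the place of Il1b open. Il1b (gene 16176, chromosome 2, 129190306 to 129196875, minus strand) was scarce in both libraries, with about 26 and 18 reads. Its level of 1.19 FPKM in fl/fl and 0.83 FPKM in AD1KO gave a log2 ratio of -0.51 whose interval of -1.46 to 0.41 holds 0, so it counts among the 9 lower genes by a narrow margin. Whether Il1b differed, and by how much, is thus not resolved at this depth. Its ratio fell short of -0.5 under 5 of 7 other settings of scaling, pseudocount and filter. The ratio of Il1b was above that of Casp1 by 0.50, with an interval from -0.449 to 1.445, which holds 0. An annotated gene on the opposite strand, Gm14047, overlaps an exon of Il1b. Whether the reads were counted by strand is not given in the sources used here, and Gm14047 has no row of that name in the table.

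Il18 (gene 16173, chromosome 9, 50383378 to 50389942, plus strand) was the member not called. It had 10.4 FPKM in fl/fl and 8.40 FPKM in AD1KO, for a log2 ratio of -0.31 (interval -0.63 to 0.01) from about 189 and 150 reads. By ratio it stood at percentile 28.0 of all tested genes. Its ratio was higher than that of Casp1 by 0.71 (interval 0.37 to 1.05) and than that of Gsdmd by 0.71 (interval 0.36 to 1.07). By level, Il18 was number 6 of the 10 genes in fl/fl and number 3 in AD1KO.

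In fl/fl the order of levels was Casp1, Gsdmd, Pycard, Il1rn, Casp4, Il18, Aim2, Il1b, Nlrc4 and Nlrp3. The counting intervals of neighbours in that order overlap among the last 3 genes and are apart for the rest. In AD1KO the order was Casp1, Gsdmd, Il18, Pycard, Il1rn, Casp4, Aim2, Il1b, Nlrc4 and Nlrp3, and the genes from Il18 to Casp4 lay within 7.40 to 8.40 FPKM with overlapping intervals. These 4 genes could not be ranked by level at this depth, nor could Nlrc4 be told from its neighbours Il1b and Nlrp3.

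The last member acts against IL-1. Il1rn (gene 16181, chromosome 2, 24192373 to 24207014, plus strand) encodes the receptor antagonist that keeps IL-1 from its receptor. It had 19.2 FPKM in fl/fl and 7.82 FPKM in AD1KO, for a log2 ratio of -1.29 (interval -1.48 to -1.11) from about 797 and 320 reads. Il1rn RNA was 16.1 times the level of Il1b RNA in fl/fl and 9.42 times in AD1KO. The change in that quotient was -0.78 on the log2 scale with an interval from -1.73 to 0.19, which holds 0.

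The gene of the soluble IL-18 binding protein, Il18bp, which is no member but sequesters the cytokine, differed far more than Il18 did. Its level was 23.1 FPKM in fl/fl and 4.68 FPKM in AD1KO, from about 532 and 106 reads, for a log2 ratio of -2.30 (interval -2.62 to -2.00). In fl/fl its RNA was 2.22 times the level of Il18 RNA, and in AD1KO it was 0.557 times that level, so the order of the genes was turned. The log2 ratio of Il18bp lay below that of Il18 by 1.99, and the interval of the difference ran from -2.44 to -1.55. Il1r2, the decoy receptor of IL-1, had 1.64 and 0.94 FPKM, and the interval of its log2 ratio (-0.80) ran from -1.60 to 0.06 and holds 0. These pairs were chosen after their values were seen.

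**Figure D3:**
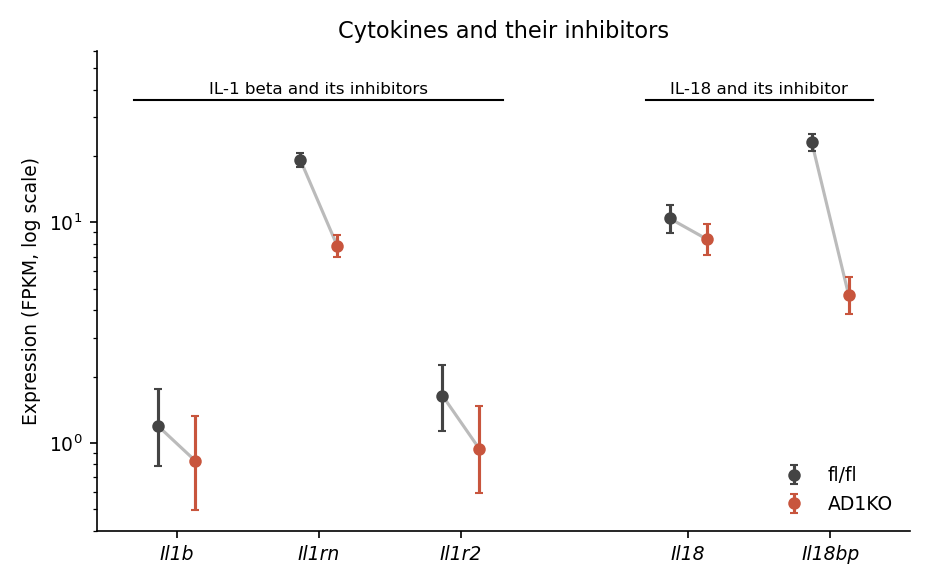
FPKM on a log axis of the cytokine genes Il1b and Il18 and of the genes of their inhibitors, with dark points for fl/fl, red points for AD1KO and 95% Poisson counting intervals. Il18bp lies above Il18 in fl/fl (23.1 against 10.4 FPKM) and below it in AD1KO (4.68 against 8.40 FPKM).

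Beyond the members, 8 lists of pathway genes held 74 genes, of which 67 had a row and 63 were tested. Of these, 34 were called lower and 0 higher, and for 22 the whole interval lay at or below -0.5. Over all tested genes the shares were 19.1% lower, 14.3% higher and 8.27% by the whole interval. These shares are also the background of each list below, markers included. The further sensor genes had 9 of 13 tested lower, with a median log2 ratio of -0.93; Nlrp10 (0.74 and 0.52 FPKM), at -0.50, is on the threshold. For 4 of these 9 the whole interval lay at or below -0.5, and for Naip1, Mefv and Nlrp10 it holds 0. The median is the ratio of Mefv, which rests on about 10 and 5 reads. Nlrc5, which drives MHC class I genes rather than an inflammasome, was the lowest at -1.41 (15.7 and 5.88 FPKM), and Naip5, a flagellin receptor upstream of NLRC4, was at -1.20 (2.91 and 1.26 FPKM). Naip2 had 11.1 and 5.66 FPKM, for a log2 ratio of -0.98. The Naip genes share 18.3% to 32.4% of their 50-base runs with other genes, mostly with each other, so single values are uncertain.

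The sensors of the NLRP1 kind went apart. Nlrp1a was at 1.09 and 0.56 FPKM (log2 ratio -0.95), whereas Nlrp1b was at 22.3 and 26.3 FPKM (log2 ratio 0.24). The table gives Nlrp1b a length of 14622 bases, while its longest protein-coding transcript in the annotation has 4319, and the genes share some sequence, so the level of Nlrp1b is uncertain. Nlrx1, a mitochondrial member of the family, was also slightly higher in AD1KO (5.79 and 7.03 FPKM, log2 ratio 0.28).

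All 8 genes of the PYHIN family, to which Aim2 belongs and many of whose members are interferon-inducible, were called lower, with a median of -1.05. Ifi205 was the most abundant in both libraries, at 62.6 and 29.6 FPKM (log2 ratio -1.08). Ifi211 was at 43.0 and 14.9 FPKM (-1.53) and Ifi204 at 40.3 and 19.8 FPKM (-1.02). Up to 49.5% of the 50-base runs of the Ifi genes checked occur in another gene, so reads may be shared among them.

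Activation partners were split, with 7 of 10 lower and 0 higher. The interferon-inducible GTPase genes that expose bacterial membranes to the caspases had the lowest ratios: Gm12250 (Irgb10) -3.49, Gbp2 -2.56 and Gbp5 -2.54. P2rx7, the ATP receptor that drives potassium efflux, was at 12.3 and 6.93 FPKM (log2 ratio -0.82), and the channel gene Panx1 was at 8.06 and 4.46 FPKM (-0.85). Card9 and Pstpip1, genes of myeloid adaptors, were at -0.91 and -1.18. In contrast, the kinase gene Nek7, whose product binds NLRP3, was at 26.5 and 26.6 FPKM (log2 ratio 0.01, interval -0.08 to 0.10). Brcc3, which deubiquitinates NLRP3, was at 0.01 (-0.21 to 0.23), and Txnip at -0.07 (298 and 284 FPKM).

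In the list of other caspases, Casp2 was at 3.97 and 2.63 FPKM (log2 ratio -0.59). Casp8, the most abundant, was at 28.7 and 21.9 FPKM (log2 ratio -0.39). No tested gene for other pores or membrane rupture was called, of 3 tested. Ninj1, which breaks the membrane at the end of pyroptosis, was at 103 and 74.3 FPKM (-0.47), and Gsdme, a gasdermin cut by caspase-3, was at 6.60 and 9.30 FPKM (0.49, and past 0.5 under each other scaling of the libraries).

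Among the remaining IL-1 family ligands, Il33, an alarmin, was at 5.74 and 5.80 FPKM (log2 ratio 0.01), Il1a at 0.36 and 0.26 FPKM from about 13 and 9 reads, and Il1f9 (IL-36 gamma) at 1.14 and 0.60 FPKM from about 31 and 16 reads. Among 9 receptors and binding proteins 6 were lower. Besides Il18bp these included both chains of the IL-18 receptor, Il18r1 at 1.39 and 0.49 FPKM (-1.49) and Il18rap at 1.21 and 0.31 FPKM (-1.93). The signalling IL-1 receptor Il1r1 was at 6.29 and 4.95 FPKM (-0.34), and its partner Il1rap at 1.68 and 1.51 FPKM (-0.15). In the signalling list after the receptors, 1 of 10 genes was lower, against 19.1% of all tested genes. It was the adaptor Myd88, at 31.0 and 17.9 FPKM (-0.79). The kinase gene Irak2 was the highest of that list at 0.34 (20.4 and 25.8 FPKM).

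**Figure D4:**
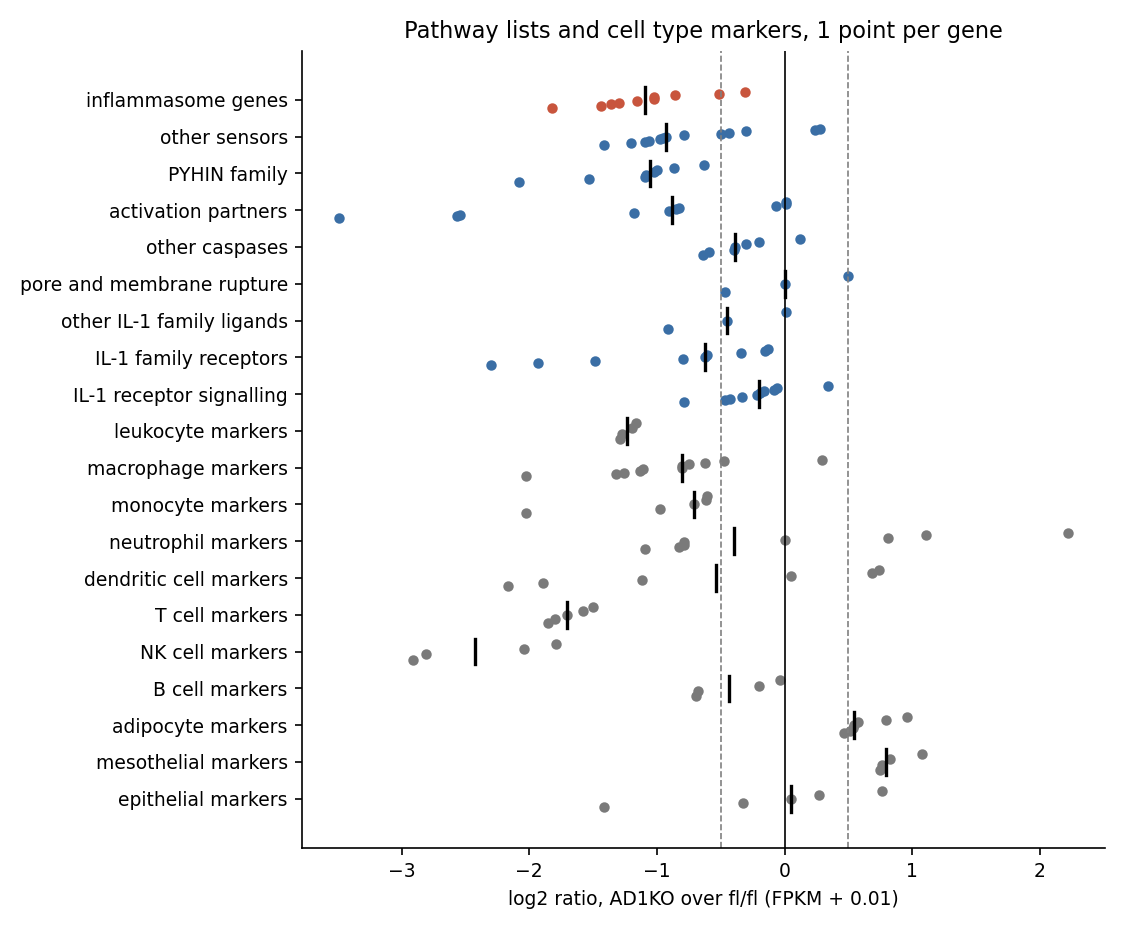
The log2 ratio of each tested gene in the inflammasome set (red), the other pathway lists (blue) and the cell type marker lists (grey); black bars are medians and dashed lines mark -0.5 and 0.5. Inflammasome genes lie between -1.82 and -0.31, leukocyte markers between -1.29 and -1.16, and adipocyte markers between 0.46 and 0.96.

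Leukocyte, macrophage, monocyte, T cell and NK cell markers were mostly lower in AD1KO, as the inflammasome genes were. The other immune cell lists were mixed. All 4 pan-leukocyte genes were lower, from -1.29 (Cd53) to -1.16 (Laptm5), and Ptprc, which encodes CD45, was at 27.3 and 11.3 FPKM (log2 ratio -1.27). Of 11 macrophage markers 9 were lower and 0 higher, with a median of -0.81 and a range from -2.03 (Fcgr1) to 0.30 (Cd163), and their summed level was 1458 FPKM in fl/fl and 690 FPKM in AD1KO. All 5 monocyte markers were lower (median -0.71; 380 and 221 FPKM in sum), as were 5 of 5 T cell markers (median -1.71; 53.2 and 15.8 FPKM) and 4 of 4 NK cell markers (median -2.42; 10.3 and 2.46 FPKM). Dendritic cell markers went both ways, with 3 of 6 lower and 2 higher (13.7 and 8.93 FPKM), and of 4 B cell markers 2 were lower (85.5 and 56.6 FPKM). The interval of Itgae, 1 of the higher dendritic cell markers, holds 0 (about 19 and 32 reads). Neutrophil markers had 4 of 8 lower and 3 higher (46.0 and 65.5 FPKM), most of the sum being S100a8. S100a8 was among the higher ones, with a log2 ratio of 0.81 (interval 0.52 to 1.10). Ly6g was without a row and Mpo listed at 0 in fl/fl. Of the higher neutrophil markers, the intervals of Elane (about 7 and 15 reads) and Ngp (about 1 and 5 reads) hold 0. Those of Cxcr2 and Retnlg among the lower ones do too. Adipocyte markers were higher in 6 of 7 cases (16450 and 24864 FPKM) and mesothelial markers in 4 of 4 (53.2 and 104 FPKM). Of 5 epithelial markers 1 was higher and 1 lower (33.1 and 48.8 FPKM), the lower one being Cdh1 with about 18 and 6 reads.

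Set against the range of the 4 leukocyte markers, the counting intervals of 7 inflammasome genes overlapped it, those of Casp1, Casp4 and Il18 lay wholly above it, and none lay wholly below it. That range is narrower than the one of the 11 macrophage markers, from -2.03 (Fcgr1) to 0.30 (Cd163), which holds the ratios of all 10 inflammasome genes. The leukocyte range also leaves out the counting error of its markers. The intervals of Laptm5 (-1.21 to -1.12) and Coro1a (-1.28 to -1.11) overlap that of Casp1, while those of Ptprc and Cd53 do not. Overlap also depends on the reads of a gene: the wide interval of Il1b holds 0 as well. Gsdmd, with fewer reads than Casp1 and the same rounded ratio of -1.02, is counted as overlapping, while Casp1 is not. The log2 ratio of Casp1 was above that of Ptprc by 0.25 (interval 0.09 to 0.42) and that of Il18 above it by 0.96 (interval 0.63 to 1.30). Pycard and Nlrp3 were below it by amounts whose intervals hold 0 (-0.39 to 0.06 and -1.35 to 0.19). In these bulk libraries fewer cells of a type and less RNA per cell cannot be told apart, and the part of the immune markers in the inflammasome values was not tested.

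Because the deleted enzyme maintains methylation at CpG sites, the promoter sequences were described too. RefSeq promoters of 300 bases on GRCm38.p6 were matched for 9 of the 10 genes, with 13 entries in all, and each held between 1 and 5 CpG sites, against a median of 7 and quartiles of 3 and 20 over 32851 promoters. The 250 bases before the start are shown for the most abundant member, Casp1, and for the one not called, Il18, with CpG in capitals.
Casp1: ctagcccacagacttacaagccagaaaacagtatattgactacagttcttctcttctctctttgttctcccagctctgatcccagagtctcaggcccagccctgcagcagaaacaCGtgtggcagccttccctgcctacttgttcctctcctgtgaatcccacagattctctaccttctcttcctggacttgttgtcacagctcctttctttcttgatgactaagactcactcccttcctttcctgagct
Il18: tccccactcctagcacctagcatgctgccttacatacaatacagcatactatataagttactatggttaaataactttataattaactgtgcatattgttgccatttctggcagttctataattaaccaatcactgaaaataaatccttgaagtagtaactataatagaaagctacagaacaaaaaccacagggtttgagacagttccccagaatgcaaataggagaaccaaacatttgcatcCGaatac
They lie at chr9:5298267-5298516 and chr9:50554450-50554699 of GRCm38.p6, plus strand, and hold 1 CpG each. On either strand, GAAA followed after 2 bases by GAAA (the core of interferon-stimulated elements) occurs in 3.44% of all promoters, TTCNNNGAA (STAT sites) in 8.30% and GGGA followed after 1 base by TTTCC (NF-kappa B sites) in 0.411%. These letters were in none of the 13 member windows, which says nothing of sites outside them or of near matches. Methylation of these promoters in fl/fl and AD1KO mice was not analysed here.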

How the data were processed

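RNA of gWAT from 4 animals per group was pooled, made into 1 oligo(dT) library per group and sequenced on a BGISEQ-500, per the labels and the study's methods. The authors deposited FPKM per gene after alignment of clean reads to mm9. The aligner and counting program are not given in the sources used here. The lowest deposited FPKM of 0.01 was read as 0. The deposited fold changes, p-values and FDR of the authors' comparison were not used. Bisulfite libraries are not used here.

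The members and lists were chosen with earlier results of these data known. Named were all 10 members, and of each list some, not all, of its genes past 0.5 with at least 1 FPKM or at either end of it by level. Further genes past 0.5, such as Nlrc3, Ifi203, Mndal, Il1rl1 and Sigirr, enter the counts only. Naip1, Mefv and Nlrp10 lie below 1 FPKM and were named to show the limits of their list. Nek7, Brcc3, Nlrx1, Irak2, Il33, Il1r1, Il1rap, Casp8, Casp12, Gsdme and the gene pairs were chosen after their values were seen. Listed symbols were matched by gene ID through RefSeq, so Mnda became Ifi211. Reads were estimated as FPKM times transcript length less 116 bases times depth, both constants being fitted so that low values below 6 reads fell on whole reads. In fl/fl 81.3% of 668 low values and in AD1KO 79.4% of 670 lay within rounding error plus 0.05 of a whole read, against 24.3% by chance in each. Ratio intervals are exact Clopper-Pearson intervals, level intervals exact Poisson ones, and intervals of a difference of ratios conditional exact odds ratio ones, all at 95%. Without replicates no p-value was computed. The steps were tested on simulated data. A planned description of protein sequences was not run. A result in the list of other caspases is not reported here. Genes were placed with the GENCODE annotation of mm9. Scripts ran in Python 3.11.15 with pandas 2.3.3, SciPy 1.17.1, NumPy 2.4.6 and, for figures, Matplotlib 3.10.9.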

Additional observations from a re-analysis of the deposited data

How the results depend on the processing

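No paired analysis was possible because each group is 1 pooled library, and no replicate could be left out. The alternatives scaled the libraries by upper quartile, median of ratios or trimmed mean of M-values, or used pseudocounts of 0.1 and 1 FPKM, no filter, a minimum of 1 FPKM, a threshold of 1 and the whole counting interval past the threshold. Among these the number of lower members ran from 7 to 9 and that of higher members was 0 in each, and their median log2 ratio ran from -1.09 to -0.88. The ratio of Il1b ran from -0.51 to -0.26 and that of Il18 from -0.31 to -0.22. Of the remaining 8 genes each stayed at or below -0.5 in all 7 alternatives that give a ratio. Against 3029 lower and 2265 higher genes in all, a pseudocount of 1 FPKM gave 1661 and 965, a threshold of 1 gave 1417 and 910, and the whole interval 1310 and 663, each stricter by construction. Upper quartile scaling turned the balance, to 2609 lower and 2796 higher, while trimmed mean scaling gave 2787 and 2521 and the median of ratios 2801 and 2494. The minimum of 1 FPKM tested fewer genes and gave 1281 higher. For the other pathway genes, where the same settings were added after seeing the data, 34 lower became 16 at a threshold of 1 and 22 by the whole interval; 1 was higher under each other scaling and 2 without a filter. The log2 ratio of Il18bp less that of Il18 ran from -1.99 to -1.80. The scalings moved the median of all genes by less than 0.1. Depth limits Il1b, Nlrp3 and Nlrc4 most, with 44 reads over both libraries for the lowest.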
